A study of Mus musculus with 4 samples.

Results

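The genes described here are 10 mouse genes for making serine, proline and asparagine, for using serine in mitochondrial folate metabolism, and for cystine import and glutathione breakdown. They were chosen by name (Asns, Psat1, Phgdh, Psph, Shmt2, Mthfd2, Aldh18a1, Pycr1, Chac1 and Slc7a11), and all 10 were found among the 23235 gene symbols of each library. RNA was measured in early blastocysts produced by transfer of a body cell's nucleus into an oocyte without its own (SCNT, somatic cell nuclear transfer), and in early blastocysts made by in vitro fertilization (IVF). Each group had 2 libraries, and each library held 6 pooled embryos lysed 96 hours after activation or fertilization. Donor nuclei for SCNT were taken from mouse embryonic fibroblasts with a heterozygous Xist knockout, bred from knockout mothers on a 129S1/SvImj background and CAST/EiJ males. B6D2F1/J (BDF1) mice supplied the oocytes for SCNT. For IVF, oocytes with the Xist knockout on a 129S1/Svj background were fertilized by wild-type sperm of CAST/EiJ males. Both groups thus had nuclei of a 129S1 by CAST/EiJ cross with the Xist knockout on the maternal side, while the strain of the oocyte differed with the method, so that effects of method and oocyte strain cannot be told apart. In the files, both SCNT columns have Kdm4d, a gene for a histone demethylase, in their headers. The labels say nothing of it, and a Kdm4d treatment of these embryos is not stated in the sources used here.

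Serine is made from a glycolysis intermediate in a chain of 3 enzymes, encoded by Phgdh, Psat1 and Psph. Serine hydroxymethyltransferase then splits serine into glycine and a folate-bound carbon unit, which feeds the synthesis of purines and thymidine. Proline is made from glutamate by the products of Aldh18a1 and reductase genes such as Pycr1, and asparagine from aspartate and glutamine by that of Asns. Slc7a11 encodes the cystine-importing part of the cystine and glutamate exchanger, and Chac1 an enzyme that breaks down glutathione. In mammalian cells most of these genes are known targets of Atf4, the transcription factor that is translated when amino acids run short or the endoplasmic reticulum is stressed.

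The values were taken to be FPKM, fragments per kilobase of transcript scaled to the mapped total, which allows levels of different genes to be set side by side. They summed to between 933167 and 985197 FPKM per library, and a library had 10802 to 10923 genes at or above 1 FPKM. How deeply the libraries were sequenced is unknown, so no counting error can be given. Libraries also differed by number: 6505 genes were at exactly 0 in SCNT library 1 and 6527 in IVF library 1, against 5212 in SCNT library 2 and 5716 in IVF library 2. MicroRNA and small nucleolar RNA genes took 9.50% and 9.73% of the summed FPKM in the SCNT libraries and 12.4% and 12.2% in the IVF libraries, which leaves a different share for other genes. Markers of the blastocyst's lineages were present, with summed FPKM of 3604 to 6004 for 8 trophectoderm genes, 319 to 396 for 8 inner cell mass genes and 217 to 308 for 6 primitive endoderm genes. Of 13 fibroblast markers, 11 were under 1 FPKM in all 4 libraries and Twist2 was at 0. Of 10 cumulus and granulosa markers, 9 were under 1 FPKM in all libraries, with Amh, Cyp19a1 and Ptx3 at 0, and the exception was Amhr2. The labels do not state separate parents, cultures or days for the 2 libraries of a group, and the p-values therefore cover the spread between these libraries alone, which may be technical.

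The mean level over the 4 libraries ran from 193 FPKM for Phgdh to 0.0359 FPKM for Slc7a11, and the order of the genes was similar in all libraries. In every library Phgdh ranked 1, Psat1 ranked 2, Asns ranked 3, Aldh18a1 ranked 7 and Slc7a11 ranked 10. Psph, Shmt2 and Mthfd2 shared the middle ranks, where Mthfd2 ranked 4 in SCNT library 1, 5 in SCNT library 2 and 6 in both IVF libraries. In SCNT the means of these 3 genes lay within the spread of Mthfd2, 35.6 ± 18.9 FPKM, while in IVF Mthfd2 at 14.8 ± 3.61 FPKM lay below Psph at 28.4 ± 1.64 FPKM by more than either spread (SD, n = 2 each). Pycr1 and Chac1 changed places in SCNT library 1. Among the tested genes, those with a mean of at least 1 FPKM, Phgdh lay at the 93.2 percentile in both SCNT libraries and at the 94.6 and 92.6 percentiles in IVF libraries 1 and 2. Chac1, near the other end, lay at the 38.4 and 5.58 percentiles in SCNT and at 2.74 and 5.70 in IVF.

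**Figure D1:**
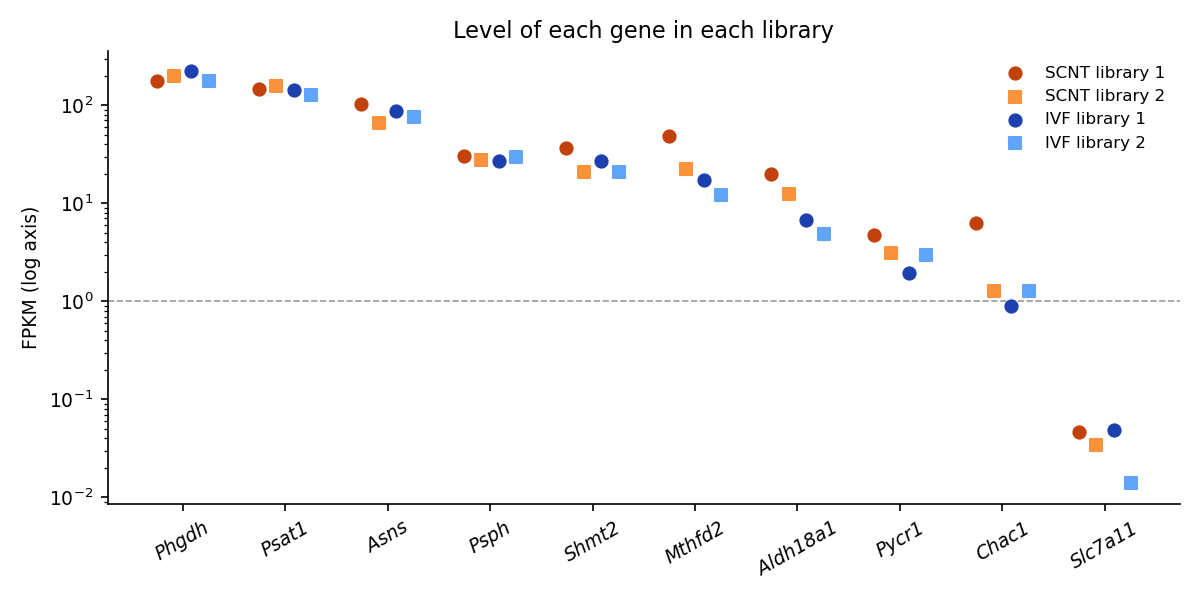
FPKM of the 10 genes (log axis) in each of the 4 libraries, with genes ordered by their mean and the dashed line at 1 FPKM. Both SCNT points of Aldh18a1 and of Mthfd2 lie above both IVF points, Chac1 is high only in SCNT library 1 at 6.23 FPKM, and Slc7a11 stays under 0.05 FPKM.

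No gene of the set passed the test between SCNT and IVF blastocysts. Over all 4 libraries on the log2(FPKM + 1) scale, Aldh18a1 and Mthfd2 had the largest differences, with means 2.78 and 2.41 times as high in SCNT. The ratio of means was higher for Chac1, at 3.48, where a single SCNT library was high. Of the 10 genes, 9 were tested and 1, Slc7a11, was below the filter. The test was limma on log2(FPKM + 1), a scale that understates the change of low genes, with Benjamini-Hochberg adjustment over 11039 genes and a threshold of 0.05. With it 0 of the 9 passed, and 0.127% of all tested genes did. At an unadjusted p under 0.05 there were 2 of the 9, both higher in SCNT, against 4.25% of all tested genes that were higher at that level. Both SCNT libraries were above both IVF libraries for 4 of the 9 (Aldh18a1, Mthfd2, Pycr1 and Psat1), against 18.3% of all tested genes, and none had both SCNT libraries below, against 15.1%. Positive differences were found for 8 of the 9, against 52.2% of all tested genes. The set was chosen with earlier results of these data known, so these counts are descriptions only. The median difference, as SCNT minus IVF, was 0.22 for the 9 genes and 0.01 for all tested genes. With 1 library left out, the median of the 9 was 0.13 without SCNT library 1, 0.60 without SCNT library 2, 0.29 without IVF library 1 and 0.093 without IVF library 2.

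**Figure D2:**
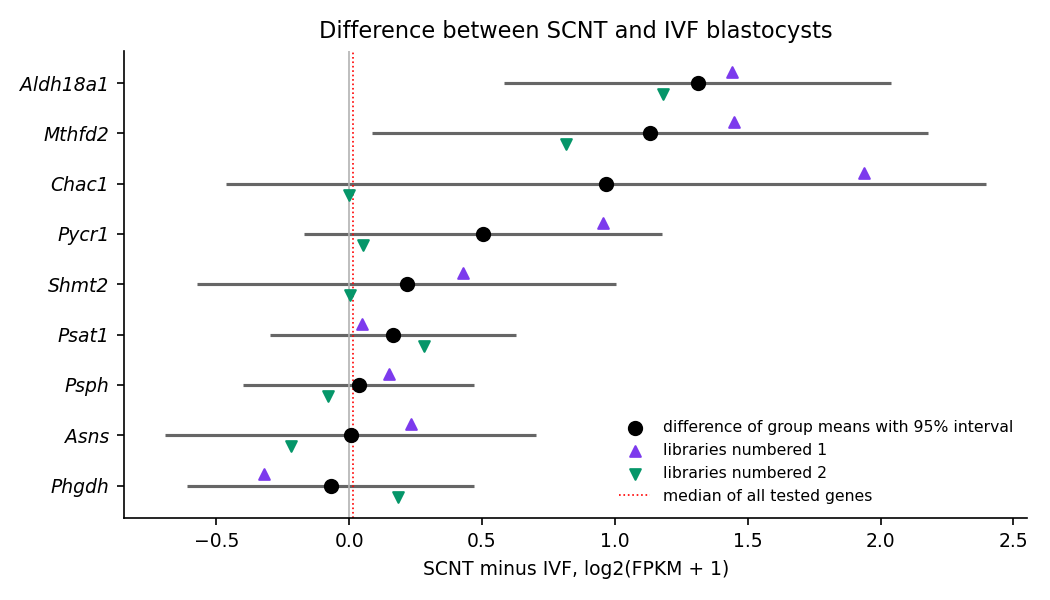
Differences between SCNT and IVF on the log2(FPKM + 1) scale for the 9 tested genes, with the difference of group means and its 95% interval from limma (circle and line) and the differences between libraries of the same number (triangles). Aldh18a1 at 1.31 and Mthfd2 at 1.13 have intervals above 0, while for Chac1 the libraries numbered 1 differ by 1.94 and those numbered 2 hardly differ.

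For the serine chain no difference between the groups was detectable, and all 3 genes were among the 4 most abundant of the set by mean. Phgdh, the dehydrogenase of the first step, was at 177 and 199 FPKM in the SCNT libraries and at 222 and 175 FPKM in the IVF libraries. Psat1, the aminotransferase of the second step, was at 148 and 156 FPKM in SCNT and at 143 and 128 FPKM in IVF. Psph, the phosphatase of the last step, was at 30.3 and 27.9 FPKM in SCNT and at 27.2 and 29.5 FPKM in IVF. The IVF libraries enclosed both SCNT values of Phgdh, the groups of Psph overlapped, and those of Psat1 did not, although the gap there was smaller than the distance between the IVF libraries. For Phgdh the log2 difference was -0.07 with a 95% interval of -0.61 to 0.47. For Psat1 it was 0.16 (-0.30 to 0.63), and for Psph 0.04 (-0.40 to 0.47), and the limma adjusted p was 0.9996 for all 3. These intervals do not contain a change by 1 on this scale in either direction. Within every library Psph was the lowest of the chain, at 8.53% and 7.29% of the summed FPKM of the 3 genes in SCNT and 6.94% and 8.87% in IVF.

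Asns, asparagine synthetase, had nearly the same mean in both groups. Its level was 104 and 65.5 FPKM in SCNT and at 88.4 and 76.5 FPKM in IVF. The SCNT libraries lay on either side of the IVF libraries. Its mean was 84.7 ± 27.2 FPKM in SCNT and 82.4 ± 8.41 FPKM in IVF (SD, n = 2 each). Its log2 difference of 0.01 had a wide 95% interval, -0.69 to 0.70 (limma adjusted p = 0.9996), and its sign turned under both scalings between libraries, to -0.01 with the upper quartile and to -0.05 when microRNA and small nucleolar RNA genes were left out of the total.

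In the mitochondrial use of serine, Mthfd2 had its higher levels in SCNT without passing the test, and Shmt2 overlapped between the groups. Shmt2 encodes the mitochondrial serine hydroxymethyltransferase and was at 36.3 and 20.9 FPKM in SCNT and at 26.8 and 20.9 FPKM in IVF, with a log2 difference of 0.22 ± 0.31 (SE) and overlapping groups. Mthfd2 encodes the mitochondrial methylenetetrahydrofolate dehydrogenase that acts on the carbon unit next, and was at 49.0 and 22.2 FPKM in SCNT and at 17.3 and 12.2 FPKM in IVF. Both SCNT libraries were above both IVF libraries, but they also differed from each other more than SCNT library 2 differed from IVF library 1. The log2 difference of Mthfd2 was 1.13 ± 0.41 (SE), with an unadjusted p of 0.0387 and a limma adjusted p of 0.645. It was 1.45 between the libraries numbered 1 and 0.82 between those numbered 2. Without SCNT library 1 it was 0.58 and without SCNT library 2 it was 1.68, so its size depended on which SCNT library was kept.

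The order of these enzymes within a library differed by group as a description. Mthfd2 was at 1.35 and 1.06 times the FPKM of Shmt2 in the SCNT libraries and at 0.647 and 0.585 times in the IVF libraries. The cytosolic Shmt1 was more abundant than Shmt2 everywhere: Shmt2 held 33.4% and 26.8% of the summed FPKM of both in SCNT and 32.7% and 31.7% in IVF. Mthfd2l, a close relative of Mthfd2, was at 0.0950 FPKM in SCNT library 1, 0.0984 FPKM in IVF library 1 and 0 in the other two, so that Mthfd2 held at least 99.4% of the pair in each library. In the GENCODE annotation exons of Shmt2 overlap those of Ndufa4l2, and exons of Psph those of Cct6a, both on the opposite strand, and without the use of strand, which the sources used here do not state, their reads cannot be separated.

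**Figure D3:**
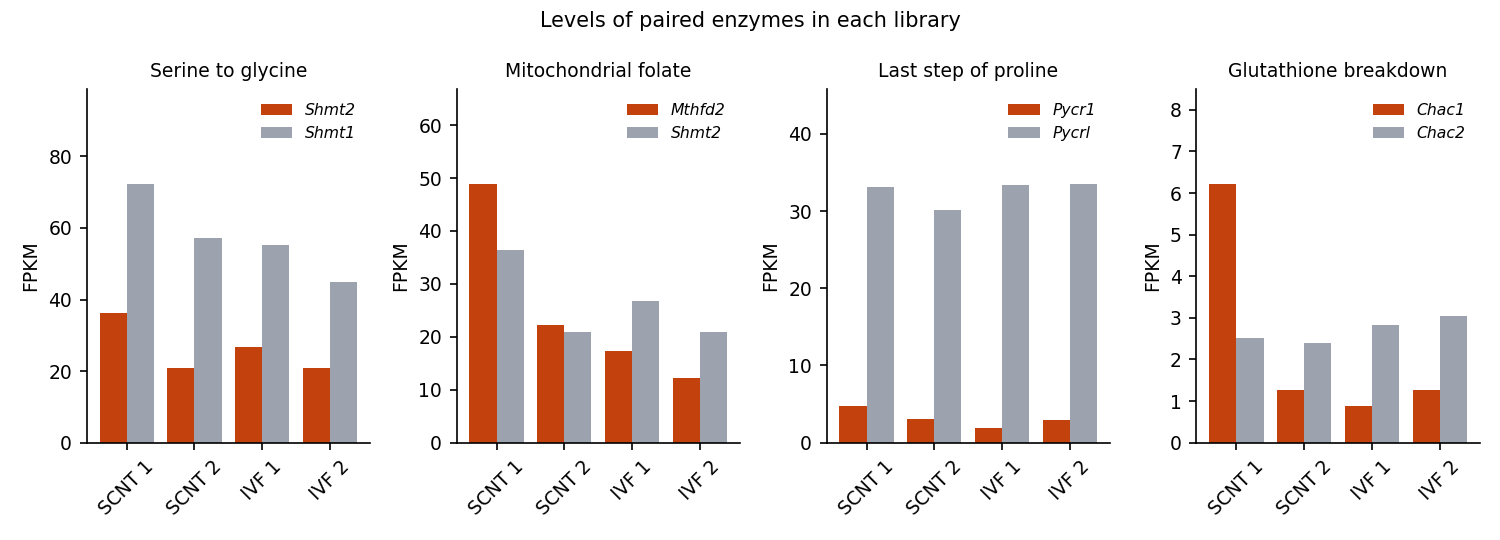
FPKM (linear axes from 0) of paired enzymes in each library: Shmt2 and Shmt1, Mthfd2 and Shmt2, Pycr1 and Pycrl, and Chac1 and Chac2. Mthfd2 exceeds Shmt2 in the SCNT libraries (1.35 and 1.06 times) and not in the IVF libraries (0.647 and 0.585 times), Pycr1 is far below Pycrl everywhere, and Chac1 exceeds Chac2 in SCNT library 1 alone.

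Of the proline genes, Aldh18a1 had the largest difference of the whole set on the log2(FPKM + 1) scale with all libraries. The order was not fixed: without SCNT library 2 the difference was 1.63 for Aldh18a1, below 1.80 for Chac1 and 1.68 for Mthfd2, and with a pseudocount of 5 it was 0.95 for Aldh18a1 and 0.97 for Mthfd2. It encodes the enzyme that turns glutamate into the precursor of proline and ornithine, and was at 19.9 and 12.4 FPKM in SCNT and at 6.70 and 4.91 FPKM in IVF. The groups did not overlap, and the gap between them was larger than the distance between the IVF libraries but smaller than that between the SCNT libraries. The mean was 16.2 ± 5.32 FPKM in SCNT and 5.81 ± 1.27 FPKM in IVF (SD, n = 2 each). The log2 difference was 1.31 ± 0.29 (SE), with an unadjusted p of 0.00556 and a limma adjusted p of 0.382. It was 1.44 between the libraries numbered 1 and 1.18 between those numbered 2, and 0.99 without SCNT library 1. In each of the 13 other settings tried the unadjusted p stayed under 0.05, at 0.000495 to 0.0321, while the limma adjusted p ranged from 0.0873 to 0.937.

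Pycr1, a mitochondrial reductase of the last step of proline synthesis, was at 4.72 and 3.11 FPKM in SCNT and at 1.95 and 2.96 FPKM in IVF. The groups did not overlap, but SCNT library 2 and IVF library 2 were close together. Its log2 difference was 0.50 ± 0.26 (SE, limma adjusted p = 0.860), 0.95 between the libraries numbered 1 and 0.05 between those numbered 2. Without SCNT library 1 it was 0.26. Pycrl, which encodes a cytosolic enzyme of the same step, was at 33.1 and 30.1 FPKM in SCNT and at 33.4 and 33.6 FPKM in IVF. It did not pass the test, with a log2 difference of -0.08 and SCNT libraries just below the IVF libraries. Pycr1 held 12.5% and 9.37% of the summed FPKM of Pycr1 and Pycrl in SCNT and 5.52% and 8.12% in IVF.

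Chac1 and Slc7a11 stood at the low end. Chac1 was at 6.23 and 1.26 FPKM in SCNT and at 0.888 and 1.27 FPKM in IVF. SCNT library 1 was above the other 3 libraries, and SCNT library 2 lay within the IVF range. The log2 difference was 0.97 ± 0.56 (SE, limma adjusted p = 0.897), 0.13 without SCNT library 1 and 1.80 without SCNT library 2. Chac2, a related glutathione-degrading enzyme, was at 2.52 and 2.40 FPKM in SCNT and at 2.82 and 3.05 FPKM in IVF, so that Chac1 held 71.2% and 34.5% of the pair in SCNT and 24.0% and 29.3% in IVF. Slc7a11 was at 0.0468 and 0.0342 FPKM in SCNT and at 0.0485 and 0.0140 FPKM in IVF, too low to test. Its partner in the exchanger, Slc3a2, which also serves other transporters, was at 61.4 and 52.5 FPKM in SCNT and at 46.2 and 51.5 FPKM in IVF.

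SCNT library 1 was the highest of the 4 libraries for 7 of the 10 genes: Asns, Psph, Shmt2, Mthfd2, Aldh18a1, Pycr1 and Chac1. For Psph the margin was small, 30.3 against 29.5 FPKM in IVF library 2. How often SCNT library 1 was the highest over all tested genes was not computed, so the count is a description. SCNT library 1 also had the highest summed FPKM of the fibroblast markers, 6.88 and 1.53 in SCNT against 3.75 and 1.89 in IVF. The sum was led by Col1a1 at 3.38 and 0.193 FPKM in SCNT and 0.730 and 0.0846 FPKM in IVF. Col1a2 and Col3a1 were also highest in SCNT library 1, at 0.955 and 0.715 FPKM, against 0.0412 and 0.00838 FPKM in SCNT library 2. The same library was highest for Dcn, Lum, Postn, Col6a1 and Col5a2, at low levels. Twist1 and Thy1 went the other way, with both SCNT libraries below both IVF libraries. Twist1, the next highest after Col1a1 by mean, was at 0.521 and 0.658 FPKM in SCNT and at 1.57 and 1.10 FPKM in IVF. Thy1 was at 0.374 and 0.133 FPKM in SCNT and at 0.578 and 0.386 FPKM in IVF. The trophectoderm markers of SCNT library 1 summed to 6004 FPKM, against 3934 FPKM in SCNT library 2 and 4401 and 3604 FPKM in the IVF libraries. This sum was made up mostly of Krt18 and Krt8. Of these 8 markers, 5 overlapped between the groups. For 3, the transcription factor genes Elf5, Eomes and Cdx2, both SCNT libraries were above both IVF libraries, against 18.3% of all tested genes. The list's other transcription factor genes, Gata3, Tfap2c and Tead4, overlapped, with log2 differences of 0.09, -0.21 and -0.08. Both SCNT libraries were likewise above both IVF libraries for 3 of the 6 primitive endoderm markers and 2 of the 8 inner cell mass markers. Elf5 was at 17.9 and 9.50 FPKM in SCNT and at 3.23 and 3.88 FPKM in IVF. Eomes was at 43.5 and 24.4 FPKM in SCNT and at 18.8 and 14.2 FPKM in IVF. Cdx2 was at 36.6 and 29.5 FPKM in SCNT and at 20.0 and 21.7 FPKM in IVF. None of the 8 trophectoderm markers passed over all genes, and the part of the fibroblast or trophectoderm markers in the differences above was not tested. In RNA from whole embryos, fewer cells of a type and less RNA per cell cannot be told apart.

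Since most of these genes are known Atf4 targets, their promoters were searched for the core of the amino acid response element, the sequence bound by Atf4 with a C/EBP partner, spelled TGATGNAA and, on the other strand, TTNCATCA. The windows are those of RefSeq on GRCm38.p6 and run from 250 bases before the annotated start to the end of a window of 300 bases. All 10 genes matched, with 11 windows, and 4 windows of 4 genes held at least 1 match. The share was 3.97% for the 32851 windows of all genes and 2.06% for those of tested genes. In the list of other Atf4 regulators and targets described below, 5 of 22 windows (22.7%) held a match. The 4 genes of the set are Asns, Chac1, Pycr1 and Slc7a11, and none of the windows of Phgdh, Psat1, Psph, Shmt2, Mthfd2 or Aldh18a1 held these letters. The stretches around the matches are shown because they let these genes be compared, read 5′ to 3′ on the gene's strand and ending before the start, with matches in capitals. In Chac1 (chr2:119351023-119351082, plus strand) the match begins 193 bases before the start, and in Pycr1 (chr11:120643818-120643877, minus strand) 103 bases before it. In Asns (chr6:7693210-7693258, minus strand) it begins 23 bases before the start, and Slc7a11 (chr3:50443627-50443686, minus strand) has a match 66 and another, facing the other way, 47 bases before the start.
Asns: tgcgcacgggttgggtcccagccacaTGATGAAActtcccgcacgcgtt
Pycr1: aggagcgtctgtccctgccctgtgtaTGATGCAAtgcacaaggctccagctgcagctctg
Chac1: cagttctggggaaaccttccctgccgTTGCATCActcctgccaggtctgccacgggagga
Slc7a11: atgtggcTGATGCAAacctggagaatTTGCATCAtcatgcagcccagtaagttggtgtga
The 250 bases before the start of Aldh18a1 (chr19:40588464-40588713, minus strand) and Mthfd2 (chr6:83317605-83317854, minus strand) are shown because only these genes of the set had an unadjusted p under 0.05.
Aldh18a1: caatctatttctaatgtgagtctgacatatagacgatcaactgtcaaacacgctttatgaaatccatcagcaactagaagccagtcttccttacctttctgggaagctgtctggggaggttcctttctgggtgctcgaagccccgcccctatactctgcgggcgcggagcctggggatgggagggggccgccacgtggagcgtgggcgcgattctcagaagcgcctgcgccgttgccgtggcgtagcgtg
Mthfd2: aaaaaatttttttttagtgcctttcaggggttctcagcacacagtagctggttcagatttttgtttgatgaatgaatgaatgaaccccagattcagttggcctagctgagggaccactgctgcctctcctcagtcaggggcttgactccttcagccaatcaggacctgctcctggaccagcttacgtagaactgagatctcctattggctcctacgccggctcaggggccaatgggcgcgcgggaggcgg
The 4 genes with a match did not share a level or a size of difference: Asns was abundant with a difference of 0.01, Pycr1 and Chac1 were low with differences of 0.50 and 0.97, and Slc7a11 was too low to test. A match in these windows is a description of the letters and does not show binding.

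Atf4 itself and several of its other known targets were higher in SCNT by estimate, and none passed over all genes. Of 21 listed regulators and targets, 18 were tested. Of these, 15 had positive and 3 negative differences, against 52.2% positive of all tested genes. At an unadjusted p under 0.05, 4 were higher and 1 lower, against 4.25% higher and 2.84% lower of all tested genes. Eif2ak2, among the 15, averaged 1.16 FPKM in SCNT and 0.850 FPKM in IVF, so it passed the filter of 1 FPKM only through SCNT. The list was chosen with earlier results of these data known, so these counts are descriptions only. The median difference of the 18 was 0.21. It was 0.15 without SCNT library 1, 0.33 without SCNT library 2, 0.16 without IVF library 1 and 0.24 without IVF library 2. Without SCNT library 1 the positive differences numbered 11. Atf4, named outside the naming rule, was at 132 and 133 FPKM in SCNT and at 104 and 116 FPKM in IVF (log2 difference 0.28). Ddit3, which encodes the stress factor Chop, was at 74.2 and 108 FPKM in SCNT and at 22.0 and 38.2 FPKM in IVF. Trib3, a pseudokinase that restrains Atf4, was at 16.4 and 8.52 FPKM in SCNT and at 3.70 and 4.37 FPKM in IVF. Atf5, a transcription factor of the same family, was at 6.63 and 3.74 FPKM in SCNT and at 1.64 and 2.40 FPKM in IVF. The limma adjusted p of these 3 genes were 0.372, 0.439 and 0.526. They were among 6 of the 18 with both SCNT libraries above both IVF libraries, against 18.3% of all tested genes. For 1 of the 18 both SCNT libraries were below, against 15.1%. Impact, lower in SCNT by estimate and known as an inhibitor of the kinase Gcn2 that senses amino acid shortage, was at 3.29 and 5.18 FPKM in SCNT and at 14.1 and 16.9 FPKM in IVF (limma adjusted p = 0.224).

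Nupr1, a stress-induced chromatin protein gene known to be an Atf4 target and named after its values were seen, was at 109.9 and 10.3 FPKM in SCNT and at 1.07 and 3.0 FPKM in IVF. It completed the 4 genes higher at an unadjusted p under 0.05, with a log2 difference of 3.62 that was 1.97 without SCNT library 1. Without SCNT library 2 it passed, with a difference of 5.27 (limma adjusted p = 0.0320). Like Chac1, it was far higher in SCNT library 1 than in the other 3 libraries.

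Amino acid transporter genes had the highest median difference of the 6 lists of related genes. All lists were chosen with earlier results of these data known, so this rank and the counts below are descriptions only. Of 13 listed transporters 9 were tested, all 9 had positive differences, and both SCNT libraries were above both IVF libraries for 8, against 18.3% of all tested genes. The 9 positive differences became 8 when libraries were scaled without microRNA and small nucleolar RNA genes, and likewise without IVF library 2 or SCNT library 1. The median difference was 0.68, and 6 of the 9 were higher at an unadjusted p under 0.05, against 4.25% of all tested genes, while 0 passed over all genes. These 6 became 4 without SCNT library 1, without IVF library 1 and without a filter on low values. Slc38a4 and Slc38a1, neutral amino acid transporters, differed by 1.17 and 0.85. Slc38a2, another of that family and a known Atf4 target, was at 9.79 and 4.63 FPKM in SCNT and at 2.37 and 2.30 FPKM in IVF. Slc7a3, a transporter of arginine and lysine, was at 3.41 and 2.12 FPKM in SCNT and at 0.519 and 0.653 FPKM in IVF (limma adjusted p = 0.320). Its IVF values were below the filter of 1 FPKM, so Slc7a3 was tested only through its SCNT libraries. It is among the 9, the 8 and the 6 genes counted above. The 6 also held Slc6a14 and Slc7a1, named after their values were seen, at 0.68 and 0.63.

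**Figure D4:**
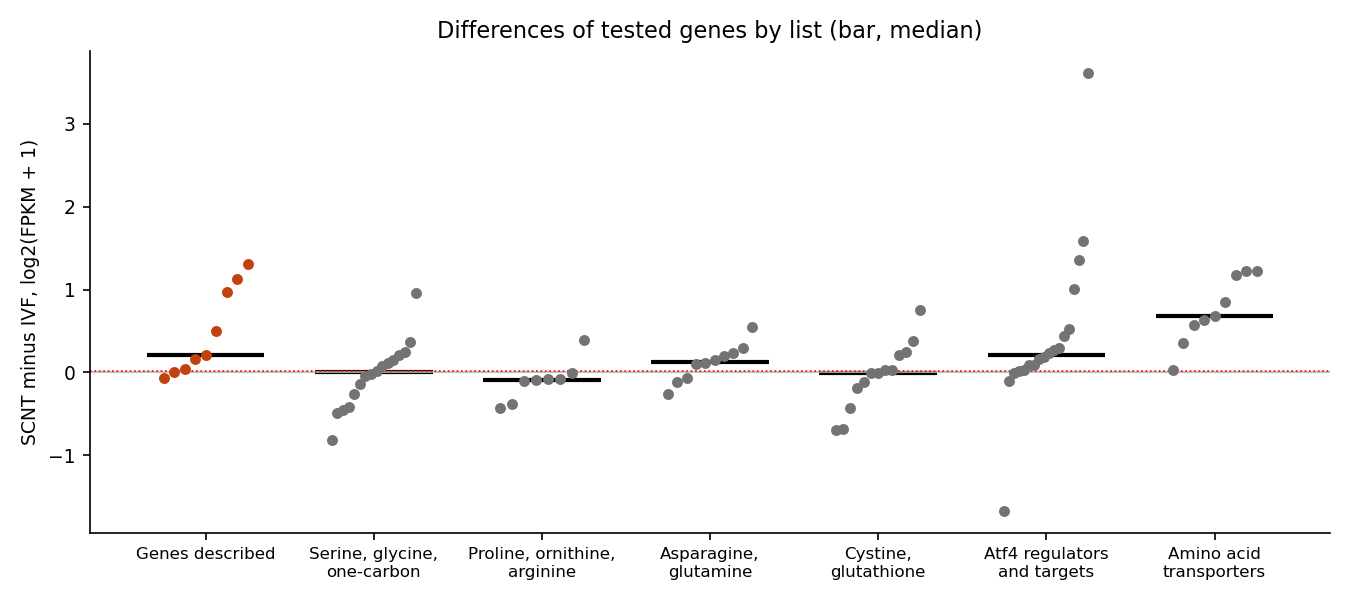
Differences between SCNT and IVF on the log2(FPKM + 1) scale for each tested gene of the set (left) and of 6 lists of related genes, with a bar at each list's median and a dotted line at the median of all tested genes, 0.01. The transporters lie highest, with a median of 0.68, the set itself has a median of 0.22, and the neighbouring enzymes of serine, proline, asparagine and glutathione metabolism have medians between -0.09 and 0.13 with all libraries.

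The neighbouring enzymes of serine and folate metabolism were split. Of 19 listed genes 16 were tested, 8 had positive and 8 negative differences, the median was 0.0030, and none passed. With 1 library left out, that median ranged from -0.09 to 0.10. Sfxn1, which encodes the transporter that carries serine into mitochondria, was at 25.9 and 27.0 FPKM in SCNT and at 12.3 and 13.9 FPKM in IVF. The gap between its groups was larger than the distance within either, with a log2 difference of 0.96 ± 0.17 (SE, limma adjusted p = 0.290). Gldc, the decarboxylase of the mitochondrial glycine cleavage system, was at 32.5 and 30.5 FPKM in SCNT and at 68.0 and 46.2 FPKM in IVF (log2 difference -0.81, limma adjusted p = 0.526). Gcsh, the carrier protein of the same system, and Aldh1l1, which oxidises the folate-bound carbon unit in the cytosol, differed by -0.45 and -0.50, and neither passed. Both SCNT libraries were below both IVF libraries for these 3 genes, for Aldh1l1 by only 12.90 against 12.96 FPKM. They were above for 3 others, among them Sfxn1 and Shmt1. Of the 16 tested genes, 3 were thus below and 3 above, against 15.1% and 18.3% of all tested genes.

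Proline, ornithine and arginine neighbours gave 8 tested genes of the 12 found, 1 with a positive and 7 with negative differences, a median of -0.09 and none at an unadjusted p under 0.05. Positive and negative differences numbered 4 each without SCNT library 2 (median 0.06) and without IVF library 1 (median 0.04), while the median was -0.29 without SCNT library 1 and -0.20 without IVF library 2. Ass1, argininosuccinate synthase, was at 159 and 164 FPKM in SCNT and at 206 and 232 FPKM in IVF, with groups that did not overlap (limma adjusted p = 0.758). Prodh, which starts proline breakdown, and Odc1, which makes polyamines from ornithine, had overlapping groups and differed by 0.40 and -0.38. In the list of asparagine, aspartate, glutamine and glutamate genes, 10 of 11 were tested, with a median of 0.13 and none at an unadjusted p under 0.05. That median was -0.03 without SCNT library 1, 0.19 without SCNT library 2, 0.30 without IVF library 1 and -0.01 without IVF library 2. Gpt2, counted in these medians, averaged 1.29 FPKM in SCNT and 0.856 FPKM in IVF, so it passed the filter of 1 FPKM only through SCNT. Asrgl1, an asparaginase, differed by 0.55 and the glutaminase gene Gls2 by 0.30. Gpt, an alanine aminotransferase, and Slc25a13, a mitochondrial carrier of aspartate and glutamate, differed by -0.26 and -0.12.

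Cystine and glutathione neighbours had differences of both signs. Of 14 genes 13 were tested, with a median of -0.0031 and none past the threshold. At an unadjusted p under 0.05, 1 was higher and 2 were lower, against 4.25% and 2.84% of all tested genes, and without SCNT library 1 there were 0 and 0. With 1 library left out, the median ranged from -0.10 to 0.06. Txnrd1, a thioredoxin reductase, was at 14.4 and 13.7 FPKM in SCNT and at 24.8 and 21.7 FPKM in IVF. Gclm, the modifier subunit of the enzyme that starts glutathione synthesis, was at 4.32 and 4.66 FPKM in SCNT and at 9.22 and 6.72 FPKM in IVF. Ggt1, which breaks down glutathione outside cells, was at 30.5 and 25.1 FPKM in SCNT and at 17.0 and 15.2 FPKM in IVF. The groups did not overlap for these 3 genes, whose limma adjusted p were 0.459, 0.536 and 0.459. Of the 13 tested genes, both SCNT libraries were above both IVF libraries for 3 and below for 3. The shares of all tested genes were 18.3% and 15.1%. Cbs, which makes cystathionine from serine and homocysteine, differed by 0.38.

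The mean profile of the 9 tested genes over the 4 libraries, as deviations from each gene's own mean on the log2(FPKM + 1) scale, was 0.53 and -0.05 in the SCNT libraries and -0.18 and -0.30 in the IVF libraries. Among 10932 tested genes outside the lists, the 5 closest to it by Euclidean distance over these 4 libraries were Stap2 (0.0183), Rab11fip5 (0.0564), Sp140 (0.0636), Snora33 (0.0805) and Gm20362 (0.0818).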

How the data were processed

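Samples were grouped by their titles. The deposited values were read as FPKM, 1 per gene symbol, a unit inferred from the tools named and the values, since no header states it. The submitters' processing notes name Cufflinks 2.2.1, Bowtie2 2.1.0, TopHat2 2.0.14 and the mouse build mm9. Which annotation, filters, strand setting or scaling the authors chose is not stated there. Per the labels' protocols, the lysate of each pool went straight into SMARTer cDNA synthesis and amplification, which adds noise to low genes.

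Genes with a mean of at least 1 FPKM over the 4 libraries were fitted in R 4.3.3 by limma 3.58.1, after log2(FPKM + 1), with group as the single term and empirical Bayes moderation that follows the mean-variance trend. P-values are two-sided, and adjusted ones use Benjamini-Hochberg over all 11039 genes fitted. The fit was tested on simulated data. The 13 alternatives changed the pseudocount, the filter, the scaling, the prior, the block or left out a library. The genes described and all lists were chosen with earlier results of these data known. Beyond the set itself, the text names up to 4 genes per list by the smallest unadjusted p, the isoenzyme partners and the 5 nearest profiles. Chac2, Slc3a2 and Pycrl are such partners. Some listed genes are not reported here and were left out of their lists' counts. Promoter windows are RefSeq's on GRCm38.p6, a build other than the authors', and were matched by symbol.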

Additional observations from a re-analysis of the deposited data

How the results depend on the processing

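Of 510 comparisons of a single gene under another setting, 499 kept both their direction and their side of the threshold, 10 changed sign and 1 (Nupr1 without SCNT library 2) came to pass. None of the 9 tested genes of the set passed under any of the 13 settings. Of the sign changes, 3 came with another scaling: Asns at -0.010 with upper quartile scaling, and Asns at -0.049 and Psph at -0.017 when libraries were scaled without microRNA and small nucleolar RNA genes. The others came from leaving out a library, where the difference ranged from -0.32 to 0.34 for Asns, -0.24 to 0.10 for Phgdh, -0.021 to 0.094 for Psph, and -0.17 to 0.60 for Shmt2. The median of the 9 genes ranged from 0.093 to 0.60 and their number at an unadjusted p under 0.05 from 1 to 3 in those fits, and the number of all genes called with limma was 36 to 43, against 14 with all libraries. Without a filter on low values, which raises the genes tested to 23235, 0 genes were called with limma (1750 were under 0.05 before adjustment), and of the 9 only 1, Aldh18a1, stayed under 0.05 before adjustment. The scaling without microRNA and small nucleolar RNA genes moved the median of all tested genes from 0.01 to -0.03.

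A fit that took each library's replicate number as a block called 20 genes in all. Of the 9, 2 had an unadjusted limma p under 0.05 there, with limma adjusted p of 0.0873 for Aldh18a1 and 0.137 for Mthfd2. Small p-values were more frequent among all genes in that fit. Of the 11039 tested genes, 1832 were under 0.05 before adjustment in either direction, against 783 without the block. The labels do not say what the number marks, and with 2 pairs the correlation of same-numbered deviations across genes, 0.31, does not establish a pairing. With 2 libraries per group and an unknown depth, the 95% interval of Chac1 ran from -0.46 to 2.40.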
